A study of Mus musculus with 6 samples.

Results

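The positions described here are the interiors of long blocks of m6A positions in mouse liver cancer-initiating cells. Listed positions on chromosomes 1 to 19 were chained wherever neighbours lay 100 bp or less apart. A chain that spanned 1000 bp or more from its first to its last position was called a long block, and its positions more than 200 bp from both ends were called interior. Of the 567664 distinct positions in the table, 550314 lay on these chromosomes, and 10867 of them were interior positions, in 439 long blocks. The choice used the spacing of positions and no m6A value. Such runs are meant to stand in for the inside of long exons and 3' untranslated regions. Whether they are exons was not checked, because no annotation of the genome build of the table (GRCm39) was used here, and blocks are therefore named by chromosome, start and end, counted from 1.

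N6-methyladenosine (m6A) is the most abundant internal modification of messenger RNA. It is written by a nuclear complex around METTL3 and METTL14, mostly on adenosines in the DRACH sequence motif, is removed by FTO and ALKBH5, and is read by YTH-domain proteins that act on splicing, decay and translation. The mark is known to be dense inside long internal exons and around stop codons and sparse close to splice junctions. The methyl group comes from S-adenosylmethionine, the product of the methionine cycle, which one-carbon metabolism feeds.

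Levels of m6A came from nanopore direct RNA sequencing, in which native RNA molecules pass a pore and the modification is called from the current. The 6 samples were cultured HCICs, HCC-initiating cells, of which 3 had wild-type Mthfd1l (MTH-WT) and 3 had an Mthfd1l knockout (MTH-D), each numbered 1 to 3. MTHFD1L is the mitochondrial enzyme that releases formate in one-carbon metabolism. By the study's methods the cells came from livers of male mice, CTL or DKI (a double knock-in of MDM2 and MDMX), given diethylnitrosamine at an age of 15 days and used 3 months later. All 6 samples thus share that carcinogen. MTH-WT and MTH-D cells were single-cell colonies that expressed Cas9 from a lentivirus, so that each is a clone. The sample numbers are not tied to named lines in the labels, which also leave unsaid whether the samples were separate cultures, so p-values measure only the spread between these samples. The edited lines were 1 CTL line (HCIC-1) and 2 DKI lines (HCIC-2 and HCIC-3), each from a different mouse, and the study's text names matched cells of HCIC-1 and HCIC-3 for its m6A measurement. The sample numbers may therefore stand for different mice and genotypes. The study's text reports Mthfd1l as depleted in all 3 edited lines. It describes the MTH-D cells of the line HCIC-2 as having a deletion of 1 nucleotide only, and values are therefore given for each sample number. The table holds m6A and no expression, so neither the loss of Mthfd1l nor the cell type could be checked in it.

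The 439 long blocks spanned 1000 to 3665 bp, with a median of 1156 bp, and 424 of them were shorter than 2000 bp. They held 11 to 139 interior positions each, with a median of 21, and neighbouring interior positions lay a median of 27 bp apart. The 3 shortest long blocks spanned 1000, 1000 and 1001 bp and had mean interior m6A of 17.2%, 40.8% and 3.33%. The 3 longest blocks left out each spanned 999 bp and averaged 3.05%, 2.38% and 4.96% over all their positions.

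Most interior positions carried little m6A, and a minority carried most of it. Over the 6 samples, 5254 of the 10867 interior positions (48.3%) averaged under 2% m6A and 2757 (25.4%) averaged 10% or more. There were 903 positions (8.31%) at 50% or more and 191 (1.76%) at 90% or more. The 1087 highest positions, all at 42.0% or more, held 58.8% of the summed m6A. Levels at the positions were closely correlated between samples. Pearson's r between samples, across 10867 positions that share sequence and caller, lay from 0.969 to 0.979 in the 15 pairs of samples. The table gives no coverage, and intervals for single values could therefore not be computed. A value of exactly 0 or 100% in at least 1 sample occurred at 47.7% of interior positions, and the share at exactly 0 ranged from 18.9% in the MTH-D sample 1 to 27.1% in the MTH-WT sample 2.

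At 2 interior positions every sample was at 100%: chromosome 7 position 127835474, which lay 561 bp from the nearer end of its block, and chromosome 13 position 67289073, 286 bp from the nearer end. The next 8 highest positions averaged 98.4% to 99.2%. They lay in 8 further blocks, and in none did any sample fall below 96.3%. High positions were spread along the blocks. Where a block held several positions of 50% or more, neighbouring ones lay a median of 97 bp apart, over 644 such gaps. Neighbouring interior positions 1 to 5 bp apart had levels correlated at r = 0.360 over 845 neighbour pairs. At gaps of 6 to 10, 11 to 20, 21 to 50 and 51 to 100 bp the correlation was 0.196, 0.210, 0.198 and 0.190. These values are a description across sites. From 6 bp on they changed little with distance. The correlation between more distant positions of the same block was not computed, so they do not single out close neighbours. Close neighbours may share reads and sequence, which could not be checked.

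Interior positions had higher mean m6A than the rest of the same blocks and than shorter blocks, in every sample. The mean over interior positions was 11.9%, 12.6% and 11.6% in the MTH-WT samples 1, 2 and 3, and 11.2%, 13.1% and 11.2% in the MTH-D samples. At the 5678 edge positions, those within 200 bp of an end of a long block, it was 10.9%, 11.5% and 10.6% in MTH-WT and 10.2%, 12.0% and 10.3% in MTH-D. The interior thus lay above the edge by 0.932 to 1.13 percentage points in 6 of 6 samples. The mean difference was 1.01 ± 0.0728 points (SD, n = 6, with p = 0.03125 by a two-sided exact sign-flip permutation test, which cannot go lower with 6 samples). The samples share the same positions, so this test covers the spread between samples only. With each block given the same weight the difference was 1.24 points. Over positions averaging 10% or more alone it was 0.547 points (p = 0.03125 by exact sign-flip permutation).

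This difference turned around when the interior was defined more narrowly. With a margin of 400 bp in place of 200 bp, 5854 interior positions remained and their mean lay below that of the other positions of the blocks (-0.578 points, exact sign-flip permutation test, p = 0.03125). The block as the unit gave a smaller majority. In 248 of 439 blocks (56.5%) the interior mean exceeded the edge mean, and the median over blocks was 0.356 points. Interior and edge means of a block were correlated across the 439 blocks (Pearson's r = 0.643, Spearman's rho = 0.742).

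The course of m6A along the blocks showed where the higher levels lay. In the outermost 0 to 50 bp, 1910 positions had a mean of 9.09% over the 6 samples, from 8.49% to 9.94%. The mean was 12.1% at 51 to 100 bp and 11.7% at 101 to 200 bp. It was highest at 201 to 300 bp, with 13.01% over 2492 positions and 12.2% to 14.3% in single samples. Further in, the mean was lower at each step. It was 12.6% at 301 to 400 bp, 11.6% at 401 to 600 bp, 10.7% at 601 to 800 bp and 9.26% beyond 800 bp. The last 2 distances were reached in only 170 and 37 blocks. Within those 170 blocks alone the means were 9.60% at 0 to 50 bp, 13.5% at 51 to 100 bp, 13.5% at 201 to 300 bp and 10.7% at 601 to 800 bp. In every sample the outermost 50 bp lay below the 5 classes from 51 to 600 bp. The ends of a block are where listed positions stop, not annotated exon ends, and strand is not given, so 5' and 3' ends cannot be told apart.

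**Figure D1:**
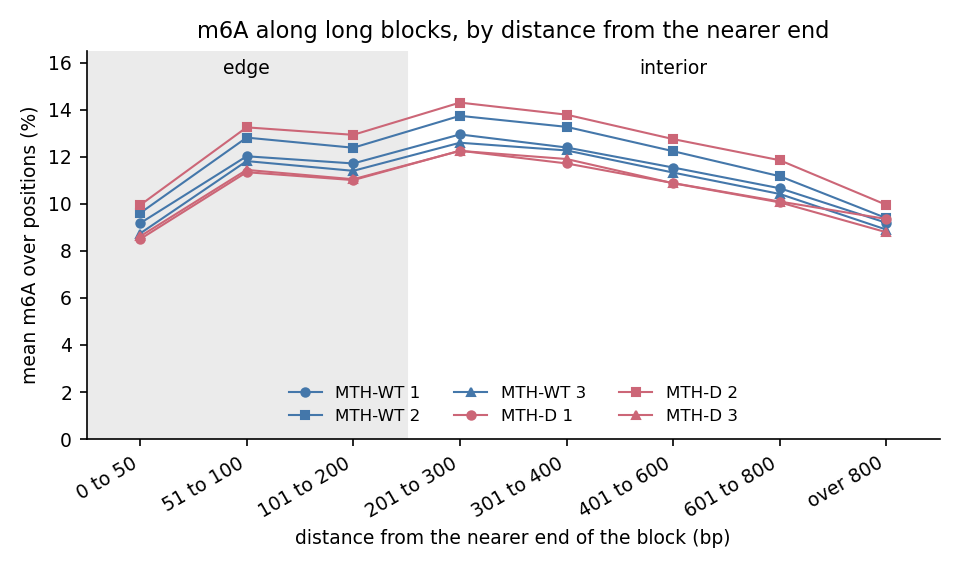
Mean m6A in percent (y axis) of positions in long blocks by distance from the nearer end of the block in bp (x axis), with 1 line per sample, MTH-WT in blue and MTH-D in red, and the edge shaded. Every sample is low in the outermost 50 bp and highest at 201 to 300 bp, and the lines of the samples numbered 2 lie on top.

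Blocks of 300 bp to under 1000 bp, called medium, numbered 11279 with 160652 positions. Their mean was 10.7%, 11.8% and 10.4% in MTH-WT and 10.2%, 12.1% and 10.01% in MTH-D. Interior positions of long blocks were higher by 1.07 ± 0.163 points (SD, n = 6, exact sign-flip permutation test, p = 0.03125), in 6 of 6 samples. Medium and shorter blocks enter with all their positions, ends included, whereas interiors leave out the outer 200 bp. Over the 6 samples the edges of long blocks averaged 10.93% and medium blocks 10.87%. The part that leaving out the ends has in the excess was not tested. Over positions averaging 10% or more alone interiors and medium blocks were 0.240 points apart, which did not pass (p = 0.469 by exact sign-flip permutation). The shorter blocks differed far more. The 373117 positions in blocks under 300 bp had means of 4.65% to 5.66%, and interior positions exceeded them by 6.86 ± 0.364 points (SD, n = 6, exact sign-flip permutation test, p = 0.03125). Among positions averaging 10% or more the excess came to 3.04 points (p = 0.03125 by exact sign-flip permutation). The share of positions averaging 10% or more was 25.4% in the interiors, 23.3% at the edges, 23.1% in medium blocks and 10.3% in short blocks. A value of exactly 0 or 100% in at least 1 sample occurred at 47.7% of interior and 51.4% of edge positions. In medium blocks this share was 50.3% and in short blocks 70.3%. Depth could differ between these kinds of block, and its part in the differences was not tested, since no coverage is given.

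**Figure D2:**
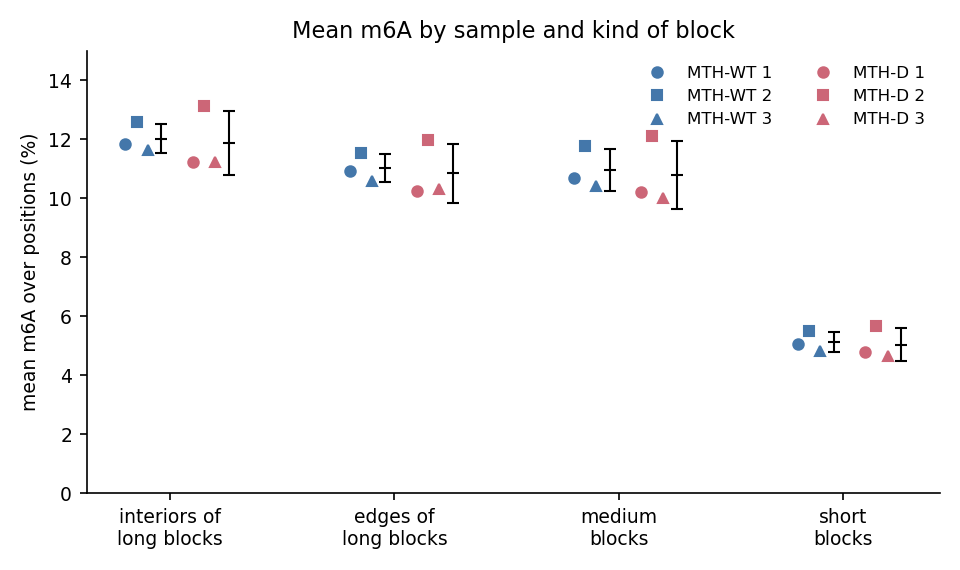
Mean m6A in percent over the positions of each kind of block (x axis), 1 point per sample, with the mean and SD of the 3 samples of each group as black bars. Interiors lie between 11.2% and 13.1% and short blocks between 4.65% and 5.66%, and in each kind of block the samples numbered 2 are the highest of their group.

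The long blocks differed widely among themselves. The mean interior m6A of a block ranged from 0.418% to 44.8%, with quartiles of 2.54%, 10.3% and 18.9%. There were 84 blocks under 2%, 133 from 2% to under 10%, 127 from 10% to under 20% and 95 at 20% or more. In 71 blocks no interior position averaged 10%, whereas 259 blocks held at least 1 position of 50% or more and 153 held at least 3. Differences between block means made up 19.3% of the variance among interior positions, so most of the variation lay within blocks. The level of a block was nearly unrelated to its span (Pearson's r = -0.0273, n = 439 blocks) or to the density of its interior positions (r = -0.0523). Block means were closely correlated between samples, with Pearson's r from 0.986 to 0.992.

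**Figure D3:**
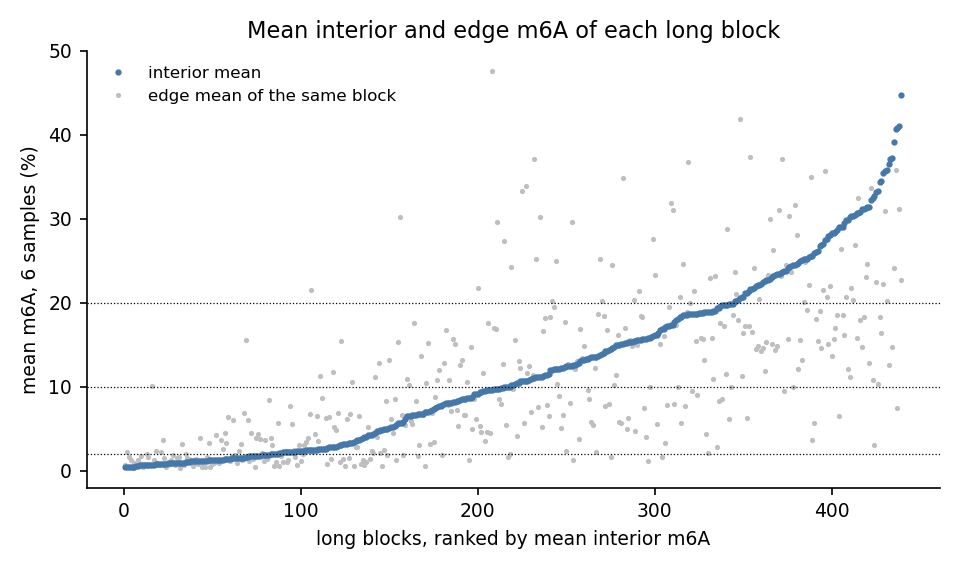
Mean interior m6A over the 6 samples in percent (y axis, blue points) of the 439 long blocks in order of that mean (x axis), with the edge mean of the same block in grey and dotted lines at 2, 10 and 20%. Interior means run from 0.418% to 44.8%, and edge means follow them with wide scatter.

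Among the 279 blocks with 20 or more interior positions, the highest was chr9:111101387-111102731. Its 24 interior positions averaged 42.1%, 44.9% and 36.6% in the MTH-WT samples and 39.6%, 45.7% and 37.2% in the MTH-D samples, and the groups overlapped. By their mean over the 6 samples it held 15 positions of 10% or more and 9 of 50% or more, the highest averaging 98.4%. The second, chr3:121807774-121808774, was among the shortest long blocks and had 11 of its 24 interior positions at 50% or more. Its means were 38.8%, 43.5% and 37.7% in MTH-WT and 39.4%, 45.5% and 39.98% in MTH-D. The other 8 of the 10 highest blocks averaged 31.3% to 35.8%. They were chr11:102690455-102691679, chr13:67663926-67665384, chr1:155723384-155724436, chr10:128646737-128648109, chr4:133407557-133409278, chr2:177169155-177170949, chr2:109553751-109554995 and chr17:7223026-7224402. The block on chr2:177169155-177170949 held 13 positions of 50% or more among 38, the most of the 10.

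The lowest blocks had as many listed positions but almost no m6A. In chr2:143830256-143831563, 32 interior positions averaged 0.427%, 0.761% and 0.396% in MTH-WT and 0.404%, 0.331% and 0.275% in MTH-D. Its highest position averaged 3.20% over the 6 samples, with 10% in the MTH-WT sample 2. The other 4 of the 5 lowest were chr18:66596838-66598224, chr4:26325764-26327287, chr14:49426755-49428003 and chr5:91771936-91773489. They averaged 0.637% to 0.710%, and no position in them averaged above 6.38% over the 6 samples.

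The longest block, chr4:132824789-132828454, spanned 3665 bp and had 139 interior positions, of which 38 averaged 10% or more and 11 averaged 50% or more. Its mean was 12.7%, 12.7% and 12.4% in MTH-WT and 12.6%, 13.5% and 12.4% in MTH-D. The second longest, chr8:91614790-91618106, was much like it, with 133 interior positions, 11 of them at 50% or more, and a mean of 13.3%. The other 8 of the 10 longest spanned 2115 to 2585 bp and averaged 1.78% to 17.2%. They were chr5:125463079-125465664, chr17:22505313-22507852, chr11:5959018-5961391, chr7:42310043-42312320, chr5:108055894-108058069, chr7:132586073-132588229, chr1:156481368-156483513 and chr1:171168175-171170290. A great span therefore did not go with one level. The block chr7:132586073-132588229 had 79 interior positions, the highest averaging 18.03%, whereas chr5:108055894-108058069 had 56, of which 9 averaged 50% or more. By class of span, the mean over positions was 12.1% for 256 blocks of 1000 to 1199 bp, 13.1% for 125 blocks of 1200 to 1499 bp, 10.04% for 43 blocks of 1500 to 1999 bp and 10.4% for 15 blocks of 2000 bp and over.

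**Figure D4:**
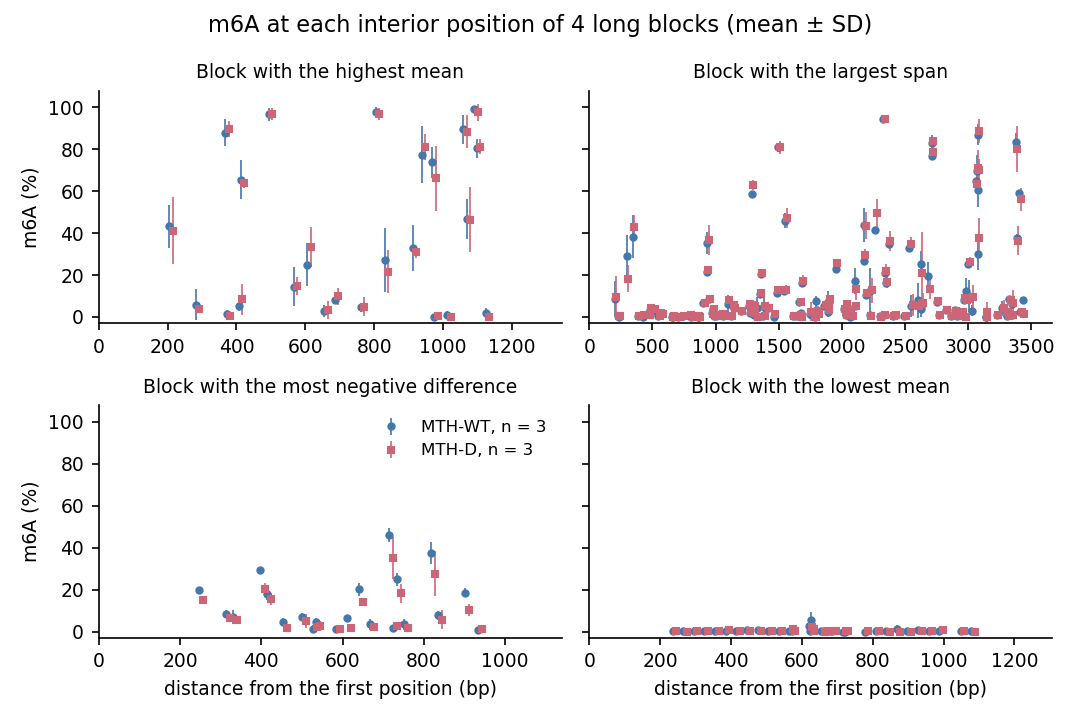
m6A in percent (y axis, mean ± SD of 3 samples) at each interior position against its distance in bp from the first position of the block (x axis), MTH-WT in blue circles and MTH-D in red squares shifted sideways for legibility. The panels show the blocks with the highest mean, the largest span, the most negative difference between the groups and the lowest mean among those named, and in the first of them positions near 0 stand beside positions near 100%.

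The comparison of MTH-D with MTH-WT asks whether loss of Mthfd1l goes with another m6A level in the interiors. Over all interior positions the group means did not differ beyond their spread. They were 12.0% ± 0.494 in MTH-WT and 11.9% ± 1.08 in MTH-D (SD, n = 3 each), which is -0.153 points apart (p = 0.80 by a two-sided exact permutation test, whose lowest possible p with 3 samples a group is 0.10). The highest and the lowest of the 6 samples were both MTH-D, so that the groups overlapped. The same-numbered samples went different ways. MTH-D minus MTH-WT was -0.622 points for number 1, 0.545 points for number 2 and -0.382 points for number 3. With numbers 1 and 3 only, it was -0.502 points (p = 0.333 by exact permutation, as low as a design of 2 against 2 can reach). The median over interior positions was 2.13%, 2.18% and 2.01% in MTH-WT and 1.92%, 2.44% and 2.08% in MTH-D, which is 0.04 points in the other direction (p = 0.90 by exact permutation).

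The opposite course of the samples numbered 2 was spread over the chromosomes and was seen at positions of 10% m6A or more. Mean interior m6A was lower in MTH-D on 18 of 19 chromosomes for number 1, on 16 of 19 for number 3, and on 1 of 19, chromosome 18, for number 2. Among the 439 blocks, 306 were lower in MTH-D in the samples numbered 1 (69.7%, against 64.7% of all 12501 blocks or parts of blocks with at least 10 positions). In the samples numbered 3, 256 were lower (58.3%, against 58.7%). In those numbered 2, 142 were lower (32.3%, against 38.4%). In percentage points the largest shifts lay at positions averaging 40% to under 80%. At the 1625 positions averaging 10% to under 40%, MTH-D minus MTH-WT was -1.49, 1.27 and -1.30 points for numbers 1, 2 and 3. At the 415 positions averaging 40% to under 60% the differences were -3.29, 2.80 and -1.93 points. At the 356 positions from 60% to under 80% they were -3.68, 2.68 and -3.02 points, and at the 361 positions of 80% or more -1.23, 0.763 and -1.25 points. Below 10% numbers 2 and 3 went the same way. The differences were -0.342, 0.348 and 0.0365 points at the 2856 positions from 2% to under 10%, and -0.0463, 0.0913 and 0.0348 points at the 5254 positions under 2%.

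**Figure D5:**
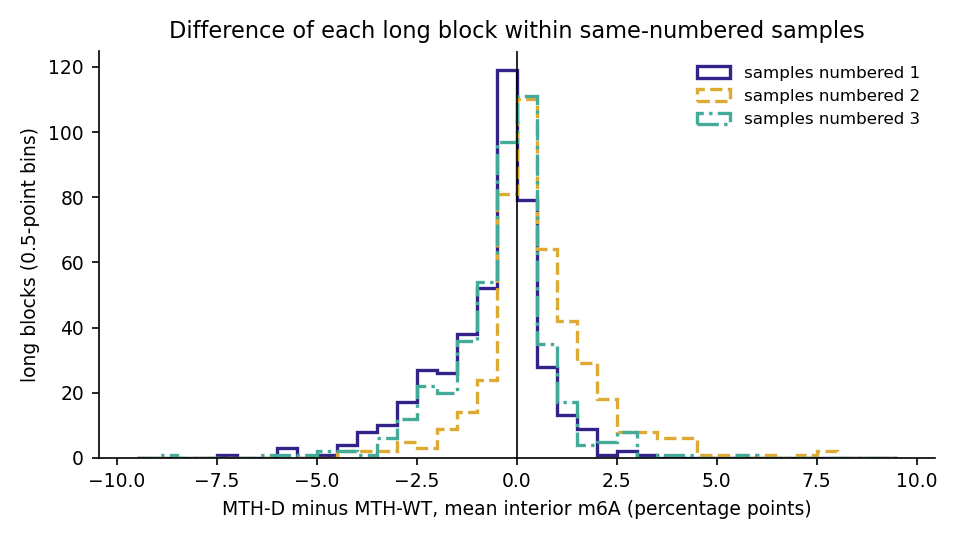
Number of long blocks (y axis, bins of 0.5 points) by the difference MTH-D minus MTH-WT of mean interior m6A in percentage points (x axis), drawn as 1 outline for each sample number. The outlines of the samples numbered 1 and 3 lean below 0 and that of the samples numbered 2 leans above it.

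The excess of interior over edge positions did not differ between the groups beyond its spread. It was 1.00 ± 0.0577 points in MTH-WT and 1.02 ± 0.0980 points in MTH-D (SD, n = 3 each), 0.0200 points apart (p = 1 by exact permutation). Edges and medium blocks showed the same signs as the interiors. At edge positions MTH-D minus MTH-WT was -0.690, 0.454 and -0.282 points in the samples numbered 1, 2 and 3, and in medium blocks it was -0.463, 0.341 and -0.398 points.

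No single interior position passed the test of MTH-D against MTH-WT. The test was limma on the log2 odds of the percentage, fitted over all 567664 positions, with Benjamini-Hochberg adjustment. It called 0 of 10867 interior positions at an adjusted p under 0.05, against 0.0% of all positions, and the lowest adjusted p of an interior position was 0.117. At an unadjusted p under 0.05 there were 371 interior positions (3.41%, against 3.22% of all), 159 lower and 212 higher in MTH-D. In 311 positions (2.86%, against 2.88% of all) the 3 MTH-D values all lay below the 3 MTH-WT values, and in 364 (3.35%, against 2.79% of all) they all lay above. Among the 2757 interior positions averaging 10% or more, 406 (14.7%, against 15.2% of all such positions) had a group mean at least 5 points lower in MTH-D and 251 (9.1%, against 9.27%) at least 5 points higher. These shares were close to those of the whole table.

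The most negative differences without overlap between the groups were at single positions with wide spread. At chromosome 13 position 67897246, m6A was 79.2%, 65.2% and 75% in MTH-WT and 41.7%, 64.0% and 41.2% in MTH-D, a difference of -24.2 points (adjusted p = 0.939, limma). The MTH-D sample 2 lay just below the lowest MTH-WT sample. At chromosome 9 position 72921119, m6A was 32.4%, 30% and 20% in MTH-WT and 11.1%, 8% and 3.70% in MTH-D, a difference of -19.8 points (adjusted p = 0.616, limma). The other 3 of the 5 most negative differences were -20.3 points at chromosome 13 position 67974669, -19.5 points at chromosome 7 position 42310588 and -18.9 points at chromosome 6 position 8215185.

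In the other direction, chromosome 9 position 119754547 had 32.3%, 28.6% and 30.8% in MTH-WT and 46.2%, 47.4% and 56.3% in MTH-D, a difference of 19.4 points (adjusted p = 0.766, limma). This position was picked among those without overlap, so all 3 MTH-D samples, that numbered 2 included, had to lie above the MTH-WT samples. Chromosome 7 position 122770802 had 5.71%, 8.70% and 6.90% in MTH-WT and 14.3%, 26.1% and 25% in MTH-D, a difference of 14.7 points (adjusted p = 0.615, limma). The other 3 of this kind were 15.3 points at chromosome 1 position 24652620, 14.6 points at chromosome 9 position 72524612 and 13.05 points at chromosome 19 position 8989963. None of these 10 positions passed the adjusted threshold, and they were taken as the extremes of 10867.

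Averaging over a block gave no call either. Across the 12501 blocks or parts of blocks with at least 10 positions, limma with Benjamini-Hochberg adjustment called 0 of the 439 interiors, against 0.0% of all, and 4 interiors (0.911%, against 1.99% of all) had an unadjusted p under 0.05, 2 lower and 2 higher. In 12 interiors (2.73%, against 2.03% of all) the 3 MTH-D means all lay below the 3 MTH-WT means, and in 8 (1.82%, against 2.1% of all) they all lay above. Among the 279 blocks with 20 or more interior positions, 6 were of the first kind and 2 of the second. The share over all blocks or parts of blocks of that size was not computed.

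The largest of these differences was in chr8:4678363-4679502, with 21 interior positions. Its mean was 12.2%, 12.9% and 13.7% in MTH-WT and 6.70%, 10.8% and 10.5% in MTH-D, a difference of -3.62 points (adjusted p = 1.00, limma). The MTH-D sample 1 lay furthest down, and without it the difference was -2.31 points. In chr1:155723384-155724436, also among the 10 highest blocks, the mean was 36.3%, 36.2% and 35.2% in MTH-WT and 32.7%, 34.6% and 32.4% in MTH-D, a difference of -2.68 points (adjusted p = 1.00, limma). Both blocks were picked for having no overlap between the groups, so all 3 same-numbered differences had to be negative. The other 4 were chr7:29632708-29633763 (-1.55 points), chr2:129126817-129128012 (-1.28 points), chr15:102407319-102408390 (-0.196 points) and chr4:26325764-26327287 (-0.151 points), of which the last 2 had means under 1%. Without the MTH-D sample 3 the block on chromosome 15 differed by -0.121 points and that on chromosome 4 by -0.0688 points. In the samples numbered 1 and 3 the block on chromosome 7 differed by -1.01 points. In blocks picked without overlap, leaving out samples can change the size of a difference but not its sign. The 2 blocks in the other direction both had low levels. In chr4:154091518-154092911 the mean was 2.13%, 2.003% and 2.08% in MTH-WT and 2.257%, 3.18% and 3.44% in MTH-D, and in chr6:145162396-145163764 it was 1.01%, 0.838% and 0.918% against 1.19%, 1.58% and 1.36%.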

How the data were processed

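The deposited values are m6A fractions between 0 and 1, which the authors give to 4 decimals for positions measured in all samples. Per the submitters' processing notes, GRCm39, minimap2 2.26 and SAMtools were used. The basecaller, modification model and coverage filter are not given in the sources used here. The input was 1000 ng of RNA per library, and sequencing lasted at most 72 h. Fractions were converted to percent, and the 3 repeated rows were averaged.

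Only a GRCm38 genome and annotation was at hand. At unchanged coordinates 2.34% of the listed positions lay on its exonic DRACH adenosines when counted from 0, and 0.299% when counted from 1, so positions were read as counted from 0 and printed with 1 added. Nothing was converted. Gene names and motifs had been looked up in GRCm38 for a few blocks during the work. That step was abandoned, since it mixes builds, and contributes nothing here. No sequence is printed, and the gene and marker lists could not be applied.

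Means over positions were compared between groups by exact permutation tests and between kinds of block by exact sign-flip tests over the 6 samples (scipy 1.17.1). In R 4.3.3, limma 3.58.1 was fitted to log2 odds of positions, and of blocks or parts of blocks with at least 10 positions, with 1 percentage point added to both shares, Benjamini-Hochberg adjustment over the whole table and a threshold of 0.05. The block test was tested on simulated data. The members, lists and tests were chosen with earlier results of these data known. Named were the 10 longest blocks, and among blocks with 20 or more interior positions the 10 highest, the 5 lowest and up to 10 negative and 5 positive differences without overlap between groups, together with the 10 highest interior positions and the 5 largest such differences of positions in each direction.

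Same-numbered MTH-WT and MTH-D samples deviated together over the 2757 interior positions averaging 10% or more (r = 0.127, 0.204 and 0.173), and the sample numbers therefore also served as a pairing. Alternatives were leaving out each sample, samples 1 and 3 only, the replicate block, other margins, spans, gaps, weights, scales and offsets, and positions averaging 10% or more. Those for medium and short blocks and for single named blocks were chosen after seeing the data.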

Additional observations from a re-analysis of the deposited data

Results flagged for a closer look

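MTH-D minus MTH-WT of mean interior m6A was 0.545 points for the samples numbered 2, whereas it was -0.622 points for number 1 and -0.382 points for number 3. The opposite direction drew attention to it. As 1 sample of each group lies on that side, the difference between sample numbers was not tested.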

How the results depend on the processing

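The excess of interior over edge positions stayed positive at 0.987 to 1.03 points when single samples were left out, and was 0.975 points in the samples numbered 1 and 3. These p-values (0.0625 and 0.125) are the smallest that 5 and 4 samples allow. The same holds for the excess over medium blocks (1.04 to 1.13 points, and 1.16 in the samples numbered 1 and 3) and over short blocks (6.74 to 6.95 points, and 6.66). A margin of 400 bp reversed the excess over the edge to -0.578 points, and over positions averaging 10% or more the excess over medium blocks came to 0.240 points (p = 0.469 by exact sign-flip permutation). The cause was not tested.

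The difference MTH-D minus MTH-WT of interior means had no stable sign. It ranged from -0.779 points without the MTH-D sample 2 to 0.162 points without the MTH-D sample 1, and was 0.158 points without the MTH-D sample 3 and 0.124 points without the MTH-WT sample 2. It was -0.668 points over positions averaging 10% or more (p = 0.80 by exact permutation), 0.0780 points in blocks of at least 2000 bp and 0.04 points as a median. The group difference in the excess over the edge ranged from -0.0330 points without the MTH-D sample 2 to 0.0638 points without the MTH-D sample 3, and was -0.0133 points without the MTH-WT sample 1 and -0.0158 points in the samples numbered 1 and 3.

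With the replicate block the paired difference of interior means was -0.153 points (p = 0.75 by an exact sign-flip permutation test, whose lowest possible p with 3 pairs is 0.25), and that of the excess over the edge was 0.0200 points (p = 1, same permutation test). limma called 0 interior positions and 0 interiors of blocks with the replicate block and under each other alternative run. Interiors with an unadjusted p under 0.05 numbered 17 with the block (3.87%, against 5.30% of all blocks or parts of blocks), 12 in the samples numbered 1 and 3 (2.73%, against 4.69%) and 11 without the MTH-D sample 2 (2.51%, against 5.08%). In the fit reported they numbered 4 (0.911%, against 1.99%). Lower in MTH-D were 11 of the 17, all 12 and all 11, and 2 of the 4 in the fit reported. Without the MTH-D sample 1 there were 3 such interiors (0.683%, against 2.18%), and 0 of them were lower. Directions over all blocks or parts of blocks were not counted. A chaining gap of 50 bp left no long block, so it gave no value. Depth is unknown, which limits every single position.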

Other observations

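Chromosome X, which the rule leaves out, held 9 blocks of the same kind with 198 interior positions. Their mean m6A was 3.65%, 4.25% and 3.41% in the MTH-WT samples 1, 2 and 3 and 3.40%, 4.28% and 3.17% in the MTH-D samples, lower in each sample than the mean over the interiors on chromosomes 1 to 19. Among chromosomes 1 to 19 the mean over the 6 samples ran from 8.05% on chromosome 10, with 23 blocks, to 17.2% on chromosome 12, with 10 blocks. These are values of few blocks each and were not tested.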
